A study of Mus musculus with 20 samples.

Results

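GRP2/MP3 and GRP3 are cell populations sorted from the periventricular tissue of Swiss Webster mouse pups at postnatal day 5. Both gates hold cells that carry NG2 and lack CD133 and LeX (CD15), and they differ in CD140a, the PDGF receptor alpha protein, which GRP3 cells carry and GRP2/MP3 cells lack. All pups of a litter, males and females, were pooled before the sort, no animal was treated, and RNA with a polyA tail was amplified before the libraries were made. The gate GRP2/MP3 bears 2 names because 2 kinds of progenitor share its antigens, which these antibodies could not separate. The comparison takes the 4 GRP2/MP3 and the 4 GRP3 libraries, 8 of the 20 libraries of the series, paired by the batch number that the labels give, and libraries are named here by population and batch (GRP3 4 is the GRP3 library of batch 4). It asks how the RNA of NG2+ cells without CD140a differs from that of NG2+ cells with it. Values are RPKM, a read count corrected for how long the gene is and how many reads the library has, and a difference is always GRP2/MP3 minus GRP3 on the log2(RPKM + 1) scale, which understates the change of genes near 0. Of 45705 genes in the table, 16191 reached 1 RPKM in 4 or more of these libraries and were tested.

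NG2 is a chondroitin sulfate proteoglycan found on more than 1 kind of cell in the young brain. Oligodendrocyte progenitor cells (OPCs) carry it together with CD140a, divide in response to PDGF-A, and depend on the transcription factors OLIG2 and SOX10. Pericytes, the mural cells that wrap capillaries, carry NG2 with PDGF receptor beta instead of alpha and hold the endothelium in place. Microglia are the resident macrophages of the brain. They read purines through P2RY12, respond to colony-stimulating factor 1 through CSF1R, and make the C1q chains that start the classical complement cascade.

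The gene of the antigen that separates the gates followed the sort. Pdgfra stood at 1.8, 5.23, 2.18 and 7.49 RPKM in GRP2/MP3 1 to 4 and at 512, 803, 3.41 and 171 in GRP3 1 to 4. GRP3 exceeded GRP2/MP3 in each batch, but in batch 3 both libraries lay far below GRP3 1, 2 and 4. This is a check of the sort and not a finding. Cspg4, the gene of NG2, was at 5.91, 9.64, 0.0431 and 7.89 RPKM in GRP2/MP3 and at 93.2, 80.9, 0.245 and 11.7 in GRP3, so it was measured in both gates at different levels in batches 1 and 2 and was near 0 in batch 3. Its log2 difference without batch 3 was -2.41, SE 0.69, adjusted p = 0.108, which did not pass the threshold. Prom1 (CD133) ranged from 1.36 to 14.1 RPKM in GRP2/MP3 and from 0.991 to 12.9 in GRP3. Of the enzymes that build LeX, Fut4 ranged from 0.37 to 4.96 RPKM in GRP2/MP3 and from 0.669 to 1.74 in GRP3, and Fut9 from 0.00361 to 4.22 and from 0.08 to 14.9.

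The table carries no number of reads per library. The low values of a gene stood in ratios of small whole numbers, and the most frequent ratio put the depth of GRP3 at 0.823, 0.831, 1.1 and 0.48 times that of GRP2/MP3 in batches 1 to 4. Genes above 0 numbered 20116 to 39689 per library, both extremes being in batches 3 and 4 (GRP2/MP3 3 and GRP3 4). GRP3 4 had 34536 genes at 1 RPKM or more, against 12946 to 22532 in the other 7 libraries. Because the number of reads behind a value is unknown, no counting error can be given, and 0 RPKM means only that the table lists 0.

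Batch 3 stood apart and is described before the comparison. Its libraries were nearly the same as each other. Pearson's r of log2(RPKM + 1) between GRP2/MP3 3 and GRP3 3 was 0.968 across all genes, against 0.812, 0.891 and 0.816 in batches 1, 2 and 4. Of the genes tested, 293 were higher and 346 lower in GRP2/MP3 3 by 1 log2 unit or more, compared with 2722 and 6021 in batch 1, 2270 and 2973 in batch 2 and 2015 and 1770 in batch 4. Most genes of pericytes and OPCs that are described below were near 0 in both batch 3 libraries. Rgs5 was at 0.251 and 0 RPKM in GRP2/MP3 3 and GRP3 3, Higd1b was listed at 0 in both, Lhfpl3 was at 0 and 1.17, and Sox10 at 0 and 1.19. The summed pericyte list was at 138 and 145 RPKM there, above GRP3 1, 2 and 4 (55.6, 38.9 and 123.9), but Anpep, an aminopeptidase also made by myeloid cells, gave 123 and 130.1 of it. The OPC membrane list was at 148 and 165 RPKM, above GRP2/MP3 1 and 2, with Sdc3, a syndecan, at 63.2 and 64.3 and Ednrb, an endothelin receptor, at 50.8 and 55.6.

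What the batch 3 libraries held instead was alike in both gates. Hbb-bs, an adult beta globin, reached 103020 RPKM in GRP2/MP3 3 and 100178 in GRP3 3, and Il1b, the inflammatory cytokine interleukin 1 beta, 4158 and 4104. Scgb1a1, a secretoglobin of airway club cells, was at 944 and 904 RPKM, and Chil3, a chitinase-like protein of alveolar macrophages, at 617 and 658. In the other 6 libraries these last 2 genes did not exceed 0.887 and 1.55 RPKM. Over the list of alveolar macrophage genes the summed level was 3709 and 3623 RPKM in batch 3, where 86.5 to 3403 was found in batches 1, 2 and 4, and over the lung epithelium list it was 1195 and 1162 against 0.978 to 17.9. The genes of macrophages in general were high in both batch 3 libraries, for example Tyrobp at 1464 and 1375 RPKM. Those that mark microglia among macrophages were not: P2ry12 was at 1.22 and 0.915, Cx3cr1 at 0.931 and 1.18, and, picked after their values were seen, Siglech at 0.817 and 0.925, Fcrls at 2.04 and 1.94, and Sall1 was listed at 0 in both. The part that these contents play in the comparison was not tested, and results are given with and without batch 3.

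**Figure D1:**
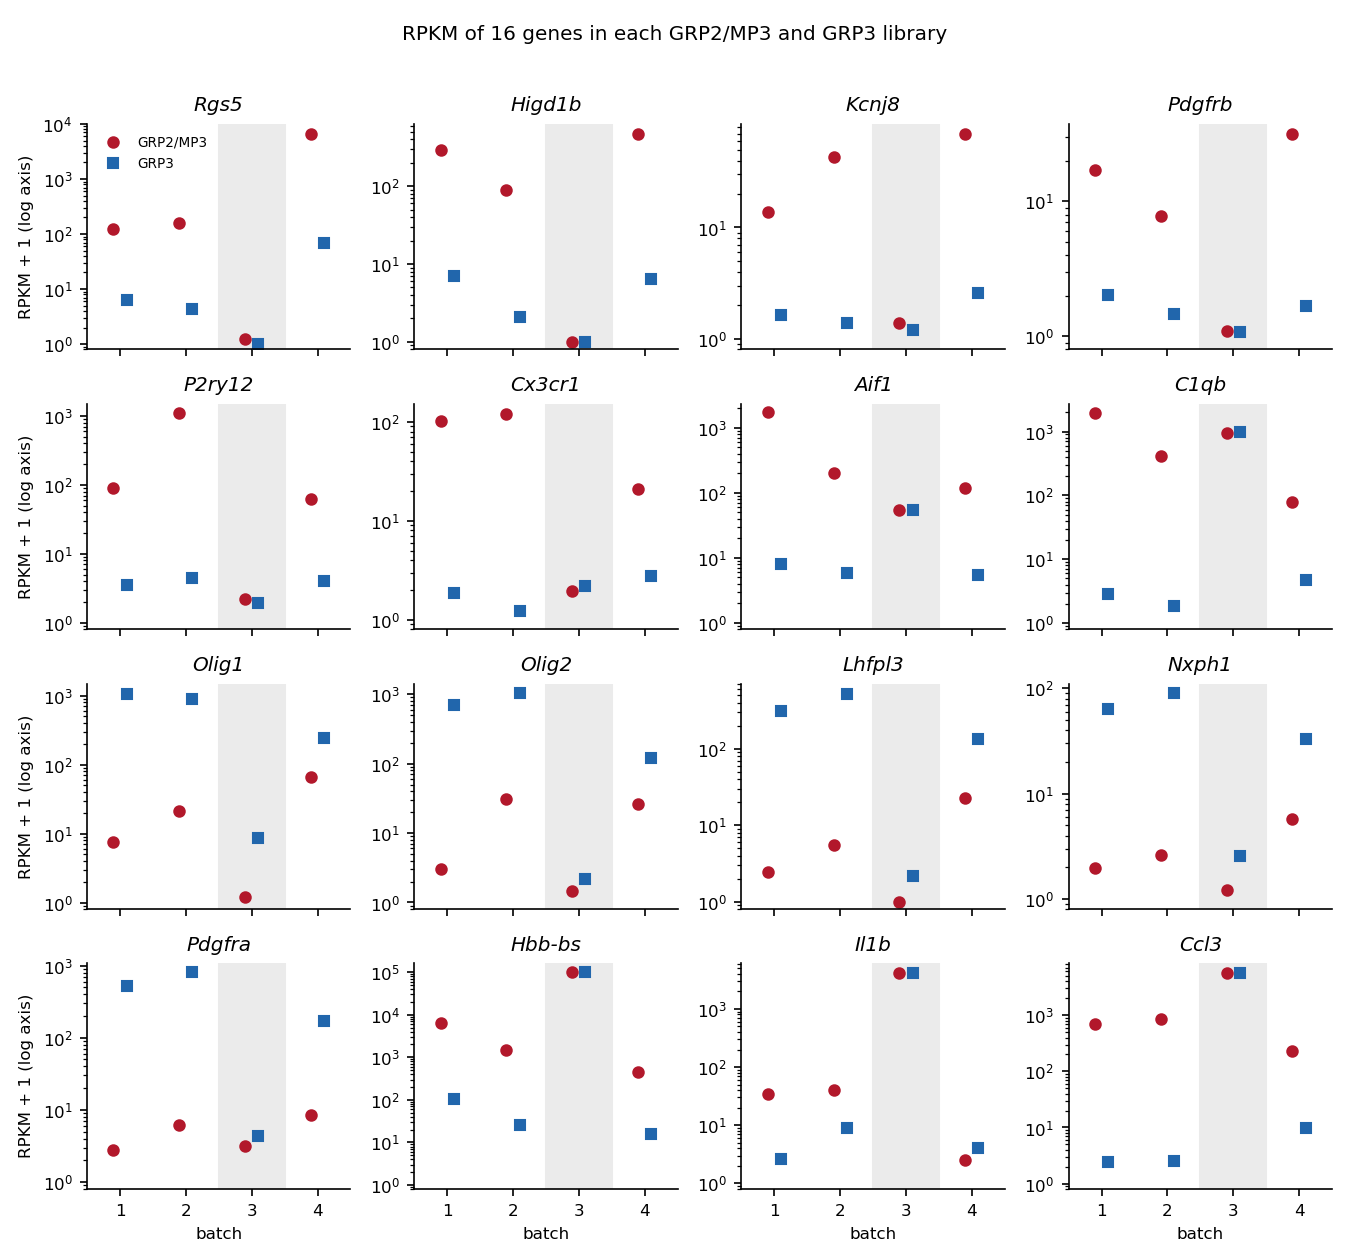
RPKM + 1 on a log axis of 16 genes in GRP2/MP3 (red circles) and GRP3 (blue squares) by batch, 1 point per library, with batch 3 shaded. In batches 1, 2 and 4 the pericyte and microglial genes of the first 2 rows lie higher in GRP2/MP3 and the OPC genes of the third row lie higher in GRP3, while in batch 3 the points of both populations lie close together for nearly every gene.

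With all 4 batches in a paired model, 1 of 16191 genes passed an adjusted p of 0.05 (limma's moderated test, Benjamini-Hochberg adjustment), a pseudogene that was lower in GRP2/MP3 (0.00618% of genes tested), and 0 were higher. At an unadjusted p under 0.05, 908 genes were higher (5.61%) and 1430 lower (8.83%). The smallest adjusted p of any other gene was 0.313. With batch 3 left out, 325 genes passed: 221 were higher in GRP2/MP3 (1.36%) and 104 lower (0.642%), and 297 of the 325 code for protein. These are the genes called higher or lower below. A difference of at least 1 log2 unit in each of batches 1, 2 and 4 was seen in 519 genes upward (3.21%) and 477 downward (2.95%). A test of whether the difference of batch 3 departed from the mean of the others called 0 genes with limma, with 587 at an unadjusted p under 0.05. Batch 3 gives this test a single pair of libraries.

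The number of calls rests on the settings and on single batches. Without batch 1 none of the 325 passed, without batch 2 the count was 287, and without batch 4 it was 2277. It was 14 when the batch numbers were not used to pair libraries, and 0 after median-of-ratios scaling, where the smallest adjusted p was 0.0534, or when only genes with a mean of at least 5 RPKM were tested. Over all genes tested the median difference was -0.26 without batch 3, and -0.02 after quantile normalization, which by construction gives all libraries the same distribution. In batch 3 itself the median was 0.00 over the 221 genes called higher and -0.02 over the 104 called lower, compared with 4.36 and -3.89 in batch 1, 4.23 and -3.67 in batch 2, and 2.70 and -2.10 in batch 4. The genes were chosen by their differences in batches 1, 2 and 4, so only the batch 3 medians lie outside that choice.

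**Figure D2:**
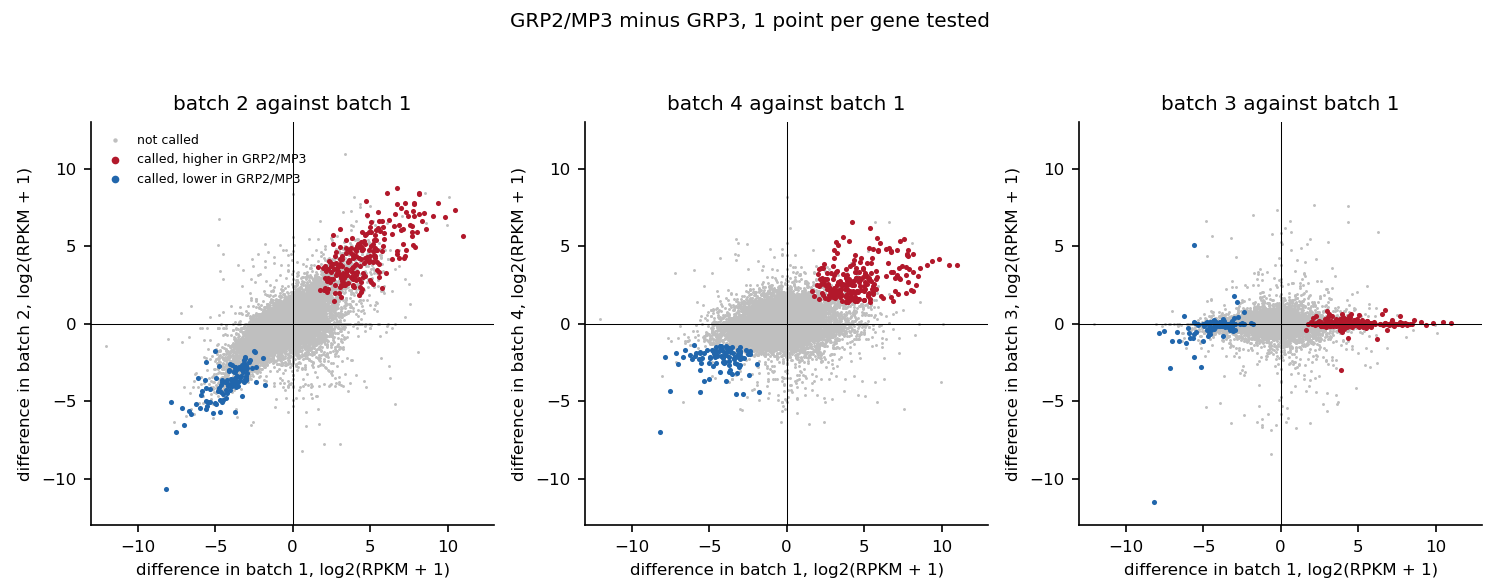
Difference GRP2/MP3 minus GRP3 on the log2(RPKM + 1) scale in batch 2, 4 or 3 (vertical axes) against batch 1 (horizontal axis), 1 point per gene tested, with the 221 genes called higher in red and the 104 called lower in blue. The called genes spread along both axes in batches 2 and 4, and in batch 3 they lie along the horizontal line at 0, except Gm3699 and a few others.

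The pseudogene called with all 4 batches was Gm3699, a processed pseudogene at chr10:43456427-43456501 (GRCm38). It was listed at 0 in all GRP2/MP3 libraries and stood at 292, 1626, 2862 and 125 RPKM in GRP3 1 to 4. Its whole GENCODE vM21 transcript of 75 bases is shown because a read of the length sequenced could cover it end to end:
Gm3699: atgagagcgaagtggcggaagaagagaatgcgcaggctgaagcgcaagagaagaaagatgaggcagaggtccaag
This sequence occurs unbroken in transcripts of 4 other genes, among them Rpl41, which codes for a ribosomal protein and stood at 22771, 803, 3389.6 and 1649 RPKM in GRP2/MP3 and 4208, 1250.4, 3329 and 511 in GRP3. The copy Gm10180 was at 0, 327, 5142 and 283 RPKM in GRP2/MP3 and 0, 0, 704 and 0 in GRP3. The values of these copies are therefore uncertain, since the counting could split the same reads among them. In the other populations Gm3699 also was listed at 0 in some libraries and high in others, with 3448, 0, 952 and 0 RPKM in NSC 1 to 4 and 1831, 714, 0 and 119 in PFMP 1 to 4. Its call was lost under every alternative to the 4-batch model except an unpaired fit, a pseudocount of 0.1 and the fit without batch 3.

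Of 22 pericyte genes listed, 19 were tested, 8 were called higher and none lower, against 1.36% and 0.642% of all genes tested. In each of batches 1, 2 and 4, 16 of the 19 were higher in GRP2/MP3, as were 13% of all genes tested. Rgs5, a regulator of G protein signalling and a standard pericyte marker, was at 120.4, 155, 0.251 and 6493 RPKM in GRP2/MP3 1 to 4 and at 5.38, 3.33, 0 and 68 in GRP3. GRP2/MP3 was above GRP3 within every batch, and GRP2/MP3 4 was far above all other libraries. The log2 difference was 5.33, SE 0.60, adjusted p = 0.0108. Higd1b, a mitochondrial protein of the hypoxia-induced gene family, stood at 287, 87.3, 0 and 463 RPKM in GRP2/MP3 and 5.92, 1.09, 0 and 5.49 in GRP3 (log2 difference 5.65, SE 0.52, adjusted p = 0.00934), and without batch 3 the lowest GRP2/MP3 library was above the highest GRP3 library. Kcnj8, a subunit of ATP-sensitive potassium channels, gave 12.8, 42.1, 0.382 and 68.9 against 0.64, 0.383, 0.2 and 1.59 RPKM (log2 difference 4.26, SE 0.57, adjusted p = 0.0182). It was higher in GRP2/MP3 in all 4 batches, by little in batch 3.

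Pdgfrb, the receptor through which PDGF-B recruits pericytes, was at 16.1, 6.74, 0.104 and 30.8 RPKM in GRP2/MP3 and 1.03, 0.465, 0.0681 and 0.676 in GRP3, with a log2 difference of 3.24, SE 0.54, adjusted p = 0.0295. The gates thus separated the 2 PDGF receptors in opposite directions, although the sort used only the alpha receptor. Gja4, a connexin of vascular cells, was also called higher (log2 difference 3.14, SE 0.45, adjusted p = 0.0201), as were Art3, Atp13a5 and Ndufa4l2. Vtn, the extracellular protein vitronectin, missed the threshold (log2 difference 3.15, SE 0.66, adjusted p = 0.0538) with 68.8, 118, 0.205 and 258 RPKM in GRP2/MP3 and 20.6, 13.8, 0 and 8.56 in GRP3. The list's median difference was 1.69, 3.00, 0.00 and 2.97 in batches 1 to 4, where the median of all genes tested was -0.55, -0.15, 0.00 and -0.11. The 1 member whose mean pointed the other way was the transcription factor gene Tbx18 (log2 difference -0.54, SE 0.45, adjusted p = 0.55). Filtering on RPKM lets a gene pass through the population where it is high, so these medians describe the members tested and are not a test of the list. As bulk RNA was measured, more cells of a type and more RNA per cell cannot be told apart.

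Among the smooth muscle contractile genes, 9 of 16 were tested and 2 were called higher, against 1.36% of all genes tested. They were Myl9, a myosin light chain (log2 difference 3.62, SE 0.58, adjusted p = 0.027), and Crip1, a small LIM protein (log2 difference 3.62, SE 0.72, adjusted p = 0.0461). Crip1 was at 790, 22, 920 and 68 RPKM in GRP2/MP3 and 15.6, 1.27, 931 and 17 in GRP3. It was thus high in both batch 3 libraries, and it reached 1687 RPKM in NSC 2. Acta2, smooth muscle actin, was at 9.33, 1.58, 4.84 and 22.6 RPKM in GRP2/MP3 and 0.708, 0.448, 4.72 and 0.864 in GRP3 (log2 difference 2.36, SE 0.59, adjusted p = 0.0803). Its values did not overlap in batches 1, 2 and 4 but missed the threshold. Tagln, the actin-binding protein transgelin, overlapped between the populations and was not called (log2 difference 1.06, SE 0.39, adjusted p = 0.189). The genes most restricted to contractile smooth muscle were barely measured: Myh11 did not exceed 0.861 RPKM in any of the 8 libraries and Cnn1 did not exceed 1.34. Tpm1, an alpha tropomyosin that many cells use, lay the other way, at 31.9, 55.9, 21 and 105 RPKM in GRP2/MP3 and 263, 205, 22.5 and 183 in GRP3 (log2 difference -1.88, SE 0.59, adjusted p = 0.133).

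Of 20 endothelial genes listed, 19 were tested and 3 were called higher, against 1.36% of all genes tested. In each of batches 1, 2 and 4, 13 of the 19 were higher in GRP2/MP3, against 13% of all genes. Cldn5, the claudin that seals brain endothelium, was at 53.7, 53.7, 0.335 and 49.8 RPKM in GRP2/MP3 and 1.5, 0.982, 0 and 3.99 in GRP3 (log2 difference 4.20, SE 0.54, adjusted p = 0.017). Esam, an endothelial adhesion molecule (log2 difference 3.36, SE 0.51, adjusted p = 0.0221), and Egfl7, a secreted protein of endothelial cells (log2 difference 3.58, SE 0.53, adjusted p = 0.0213), were the others. Cdh5, VE-cadherin, ranged from 0.162 to 2.5 RPKM in GRP2/MP3 and from 0.013 to 1.23 in GRP3. Mfsd2a, a lipid transporter of the blood-brain barrier, was lower in GRP2/MP3 in all 4 batches, at 6.77, 14.3, 1.12 and 16.5 against 91.8, 95.6, 1.51 and 39.6 RPKM, and missed the threshold (log2 difference -2.48, SE 0.60, adjusted p = 0.0765). The summed level of the list was 220.3 to 299 RPKM in GRP2/MP3 1, 2 and 4 and 95.1 to 134 in GRP3.

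Of 11 vascular basement membrane genes, 8 were tested and none was called. Col4a1, a collagen IV chain, was at 14.5, 32, 1.22 and 37.6 RPKM in GRP2/MP3 and 7.6, 5.17, 1.05 and 3.19 in GRP3 (log2 difference 2.16, SE 0.60, adjusted p = 0.102), and Sparc, a collagen-binding matricellular protein, at 284, 1012, 34.3 and 735 RPKM in GRP2/MP3 and 106, 73.8, 36.4 and 133 in GRP3 (log2 difference 2.54, SE 0.60, adjusted p = 0.0694). Both were higher in GRP2/MP3 in batches 1, 2 and 4. Of 13 fibroblast genes tested, 2 were higher and 7 lower in each of these batches, against 13% and 28.8% of all genes tested. Dcn, the proteoglycan decorin, was called lower in GRP2/MP3, at 1.62, 0.27, 8.37 and 0.726 RPKM against 24.6, 30.9, 9.5 and 39 in GRP3 (log2 difference -4.16, SE 0.53, adjusted p = 0.0169), and so was Col1a1, a collagen I chain (log2 difference -2.23, SE 0.43, adjusted p = 0.0419). Such calls made up 0.642% of all genes tested. The other 11 of the 13 passed in neither direction, and among them Fn1, fibronectin, was higher in GRP2/MP3 by at least 1 log2 unit in each of batches 1, 2 and 4, at 6.99, 13.9, 281 and 23.5 against 1.88, 1.65, 272 and 6.47 RPKM (log2 difference 1.89, SE 0.51, adjusted p = 0.0968).

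Homeostatic microglial genes had a median difference of 4.68 without batch 3, which among the 26 lists was exceeded by that of the erythroid genes alone (5.13). Of 22 listed, 21 were tested and 14 were called higher, against 1.36% of all genes tested, with none lower. Tyrobp, the adaptor that passes on signals from TREM2, stood at 6797, 881, 1464 and 64.7 RPKM in GRP2/MP3 1 to 4 and at 3.82, 4.55, 1375 and 3.7 in GRP3. In batches 1, 2 and 4 the populations did not overlap, and in batch 3 both were high. The log2 difference was 7.19, SE 1.06, adjusted p = 0.0213, the largest of the 221. P2ry12, the purine receptor of resting microglia, was at 90.1, 1101, 1.22 and 60.7 RPKM in GRP2/MP3 and 2.48, 3.46, 0.915 and 2.97 in GRP3 (log2 difference 5.54, SE 0.78, adjusted p = 0.0194). For P2ry12, GRP2/MP3 1, 2 and 4 lay above every GRP3 library.

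Cx3cr1, the fractalkine receptor, was also called (log2 difference 5.11, SE 0.74, adjusted p = 0.0203), as were Csf1r (log2 difference 4.39, SE 0.61, adjusted p = 0.0194) and Aif1, which codes for the calcium-binding protein IBA1 (log2 difference 5.77, SE 0.71, adjusted p = 0.0141). Tmem119, a membrane protein of microglia, missed the threshold: it was at 23.1, 91.3, 1.1 and 1.92 RPKM in GRP2/MP3 and 2.33, 0.803, 1.05 and 1.31 in GRP3 (log2 difference 2.96, SE 0.89, adjusted p = 0.122). In batch 4 it hardly differed. The list's median difference was 5.30, 5.71, 0.00 and 2.91 in batches 1 to 4. Its summed level was 17566, 16066 and 6761 RPKM in GRP2/MP3 1, 2 and 4, and 594, 456 and 1393 in GRP3, while in batch 3 it was 7914 and 7862.

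The complement genes followed. Of 12 listed, 10 were tested and 6 were called higher, against 1.36% of all genes tested. C1qb, a chain of the recognition molecule C1q, was at 1929.6, 408, 932 and 76.7 RPKM in GRP2/MP3 and 1.89, 0.886, 982 and 3.73 in GRP3 (log2 difference 7.06, SE 0.92, adjusted p = 0.017). C1qa (log2 difference 6.22, SE 0.93, adjusted p = 0.022) and C1qc (log2 difference 6.67, SE 0.76, adjusted p = 0.0108) code for the partner chains and moved with it. In GRP2/MP3 4 the 3 chains lay between 32.6 and 90.7 RPKM, below GRP2/MP3 1 and 2 and above GRP3 4.

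Of the Fc receptor, TYROBP and SYK signalling genes, all 15 listed were tested, 6 were called higher and 0 lower. The shares over all genes tested were 1.36% and 0.642%. Fcer1g, the Fc receptor gamma chain, was at 6018, 738, 1040.1 and 303 RPKM in GRP2/MP3 and 5.51, 5.33, 992 and 15.6 in GRP3 (log2 difference 6.97, SE 0.94, adjusted p = 0.0182). Plcg2, a phospholipase of microglial receptors, was called at a much lower level (log2 difference 1.99, SE 0.37, adjusted p = 0.0378), from 4.01, 4.25, 15.8 and 3.3 RPKM in GRP2/MP3 and 0.163, 0.0847, 15 and 0.436 in GRP3. Syk, the kinase that binds TYROBP, was not called (log2 difference 1.26, SE 0.62, adjusted p = 0.313), and in batch 4 it was higher in GRP3, at 2.42 against 1.21 RPKM. All 15 myeloid transcription factor genes were tested too, and 4 were called higher: Maf (log2 difference 3.61, SE 0.72, adjusted p = 0.0464), Lyl1 (log2 difference 3.01, SE 0.51, adjusted p = 0.0328), Fli1 and Mef2c. Spi1, which codes for the macrophage master regulator PU.1, stood at 50.4, 14.2, 172 and 8.18 RPKM in GRP2/MP3 and 0.156, 0.597, 189 and 2.83 in GRP3, and was not called (log2 difference 3.33, SE 0.76, adjusted p = 0.0652). Nor was Irf8 (log2 difference 3.03, SE 0.80, adjusted p = 0.0911).

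Promoter windows of 3 genes called higher and 2 called lower are shown with short motifs, because PU.1 and its relatives of the ETS family bind sites built around GGAA, and SOX factors such as SOX10 bind sites close to ACAAAG. The windows are RefSeq promoters on GRCm38.p6, 250 bases before to 50 after the start of the gene, read along the gene's strand. AGGAAGT, a form of the ETS site picked after these sequences were seen, and ACAAAG were searched on both strands and do not overlap in these windows. Capitals mark matches.
C1qb, chr4:136886151-136886450, minus strand: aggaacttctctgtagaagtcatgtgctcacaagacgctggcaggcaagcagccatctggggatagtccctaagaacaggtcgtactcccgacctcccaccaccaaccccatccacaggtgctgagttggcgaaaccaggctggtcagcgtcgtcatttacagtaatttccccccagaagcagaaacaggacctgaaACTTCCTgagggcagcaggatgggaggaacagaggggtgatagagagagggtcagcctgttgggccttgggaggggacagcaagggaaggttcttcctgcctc
P2ry12, chr3:59262936-59263235, minus strand: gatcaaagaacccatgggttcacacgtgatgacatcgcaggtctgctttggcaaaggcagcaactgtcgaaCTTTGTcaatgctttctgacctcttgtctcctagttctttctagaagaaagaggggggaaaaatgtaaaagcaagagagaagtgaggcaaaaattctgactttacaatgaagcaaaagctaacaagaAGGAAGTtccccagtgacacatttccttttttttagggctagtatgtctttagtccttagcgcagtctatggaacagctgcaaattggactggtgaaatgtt
Rgs5, chr1:169655251-169655550, plus strand: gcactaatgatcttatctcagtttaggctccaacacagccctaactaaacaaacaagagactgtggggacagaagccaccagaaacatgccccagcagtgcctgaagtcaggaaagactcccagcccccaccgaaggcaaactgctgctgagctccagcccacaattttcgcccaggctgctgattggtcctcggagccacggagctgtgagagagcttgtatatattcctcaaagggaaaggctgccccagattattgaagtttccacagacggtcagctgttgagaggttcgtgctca
Lhfpl3, chr5:22745804-22746103, plus strand: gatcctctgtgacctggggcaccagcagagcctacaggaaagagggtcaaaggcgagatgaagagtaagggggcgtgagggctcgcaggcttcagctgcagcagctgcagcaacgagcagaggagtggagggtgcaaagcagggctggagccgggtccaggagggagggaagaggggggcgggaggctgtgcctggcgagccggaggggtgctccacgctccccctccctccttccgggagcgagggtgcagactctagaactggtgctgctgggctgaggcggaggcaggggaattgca
Olig2, chr16:91225300-91225599, plus strand: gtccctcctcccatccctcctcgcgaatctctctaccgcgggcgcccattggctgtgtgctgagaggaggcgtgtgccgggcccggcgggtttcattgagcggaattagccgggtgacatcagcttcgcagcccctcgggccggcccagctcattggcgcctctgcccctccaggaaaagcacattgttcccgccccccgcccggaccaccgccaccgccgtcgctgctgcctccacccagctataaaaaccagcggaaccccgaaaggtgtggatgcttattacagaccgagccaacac
AGGAAGT was found in the windows of C1qb and P2ry12 and in none of the other 3, Rgs5 included, and since the motif was picked from these sequences this is a description only. It was in 9.35% of all 32851 promoter windows, and ACAAAG, found among these 5 in that of P2ry12, in 18.7%. Over the members with a window, AGGAAGT and ACAAAG were each in 5 of 14 homeostatic microglial genes and each in 3 of 22 OPC membrane genes. AGGAAGT was in 2 and ACAAAG in 1 of 16 pericyte genes, and they were in 1 and 5 of 13 oligodendrocyte lineage factor genes. A match describes the letters of the window and is not evidence of binding.

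Genes of border macrophages, which sit along vessels and meninges, were higher in GRP2/MP3 in each of batches 1, 2 and 4 for 8 of the 9 tested, against 13% of all genes. Of 12 listed, 3 were called higher: Pf4, a chemokine of platelets and macrophages (log2 difference 6.80, SE 1.16, adjusted p = 0.0334), Stab1, a scavenger receptor, and Cbr2. Among all genes tested, 1.36% were called higher. Pf4 was at 2365, 73.8, 1837 and 109.8 RPKM in GRP2/MP3 and 0.165, 0.486, 1751 and 7.17 in GRP3. Mrc1, the mannose receptor, was at 33.4, 50.9, 24.4 and 4.64 RPKM in GRP2/MP3 and 0.179, 0.209, 22.3 and 2.85 in GRP3 and missed the threshold (log2 difference 3.61, SE 0.89, adjusted p = 0.0785). In batch 4 the populations differed little in Mrc1. Cd163, another macrophage scavenger receptor, was under 1 RPKM in 7 of the 8 libraries and was not tested.

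Of 20 inflammatory cytokine and NF-kB genes, 19 were tested, 9 were called higher and none lower. Among all genes tested, 1.36% were called higher and 0.642% lower. Ccl3, a chemokine of activated microglia, stood at 707, 852, 5656 and 228 RPKM in GRP2/MP3 and 1.43, 1.55, 5610.4 and 8.93 in GRP3 (log2 difference 7.03, SE 0.79, adjusted p = 0.0108). Ccl4, its neighbour in function, had a log2 difference of 6.01, SE 0.60, adjusted p = 0.00959, and Ccl12 had a log2 difference of 5.58, SE 0.64, adjusted p = 0.0108. Ccl12 was higher in GRP2/MP3 in all 4 batches, at 166, 123.6, 2.75 and 156 against 0.82, 0.605, 1.41 and 9.19 RPKM. Tnf was at 35.8, 426, 1235 and 7.14 RPKM in GRP2/MP3 and 0.809, 0.987, 1207 and 1.5 in GRP3 (log2 difference 4.60, SE 0.98, adjusted p = 0.0548), and Il1b was higher in GRP2/MP3 in batches 1 and 2 and lower in batch 4 (log2 difference 1.74, SE 0.80, adjusted p = 0.286). Neither was called.

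Globins moved in the same direction as the macrophage genes. All 4 globin genes tested were called higher in GRP2/MP3, for example Hbb-bs at 6345, 1478, 103020 and 438 RPKM against 104, 24.7, 100178 and 15.1 in GRP3 (log2 difference 5.51, SE 0.53, adjusted p = 0.00934) and Hba-a1 (log2 difference 5.13, SE 0.60, adjusted p = 0.0108). Calls in this direction made up 1.36% of all genes tested. Alas2, the erythroid heme synthesis enzyme, was not called at 4.4, 17, 227 and 3.96 RPKM in GRP2/MP3 and 0.14, 0.309, 219 and 1.14 in GRP3. Slc4a1, the anion exchanger of the red cell membrane, did not exceed 0.893 RPKM. The summed level of the list in GRP2/MP3 1, 2 and 4 was 26515, 4569.7 and 2755 RPKM, against 330.0, 99.2 and 106 in GRP3. The alpha globin genes are near-identical copies of each other, as are in large part the beta globin genes, so how reads were shared between copies is uncertain. What part red cell RNA plays in the other differences was not tested.

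**Figure D3:**
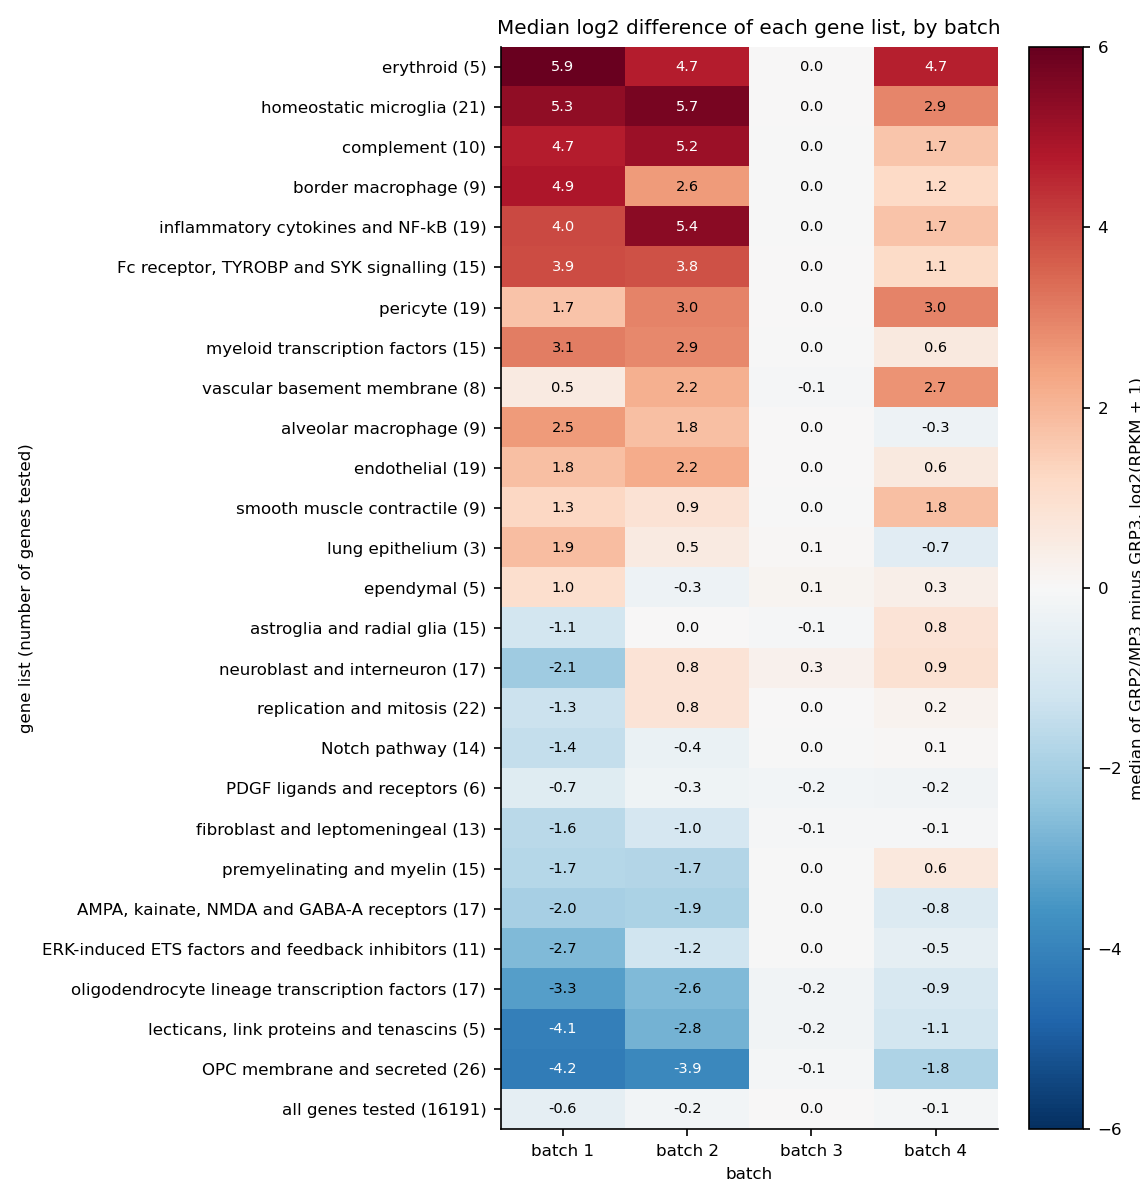
Median difference GRP2/MP3 minus GRP3 on the log2(RPKM + 1) scale of each of 26 gene lists (rows, with the number of genes tested) and of all genes tested (bottom row) in batches 1 to 4 (columns), red where higher and blue where lower in GRP2/MP3. Microglial, border macrophage, pericyte and erythroid rows are red and OPC rows blue in batches 1, 2 and 4, and the column of batch 3 runs only from -0.23 to 0.28.

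Of 28 OPC membrane and secreted genes, 26 were tested and 15 were called lower in GRP2/MP3, with none higher. The share called lower over all genes tested was 0.642%. All 26 were lower in GRP2/MP3 in each of batches 1, 2 and 4, as were 28.8% of all genes tested. Lhfpl3, a tetraspan membrane protein, was at 1.42, 4.48, 0 and 21.6 RPKM in GRP2/MP3 1 to 4 and 307, 517, 1.17 and 134 in GRP3. Its populations did not overlap without batch 3, and the log2 difference was -5.38, SE 0.85, adjusted p = 0.025. C1ql1, a secreted C1q-like protein, was at 0.801, 0.772, 0 and 7.14 RPKM in GRP2/MP3 and 188, 87.4, 0.435 and 34.5 in GRP3 (log2 difference -4.83, SE 0.84, adjusted p = 0.0335). Nxph1, a ligand of neurexins, was lower in GRP2/MP3 in all 4 batches, at 0.972, 1.63, 0.219 and 4.74 against 62.9, 88.6, 1.59 and 32.4 RPKM (log2 difference -4.22, SE 0.64, adjusted p = 0.0229).

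Some well-known members did not pass. Cacng4, an auxiliary subunit of AMPA receptors, was at 2.97, 1.72, 0.212 and 42.5 RPKM in GRP2/MP3 and 123, 59.6, 0.87 and 89.4 in GRP3 (log2 difference -3.50, SE 0.78, adjusted p = 0.0612). Gpr17, a receptor of OPCs on their way to oligodendrocytes, was at 0.665, 3.04, 0.00272 and 25.4 RPKM in GRP2/MP3 and 111, 142, 0.0392 and 35 in GRP3 (log2 difference -3.89, SE 0.98, adjusted p = 0.0833). In both genes GRP2/MP3 4 stood well above GRP2/MP3 1 and 2. Matn4, a matrilin of the extracellular matrix, had a log2 difference of -3.81, SE 0.83, adjusted p = 0.0571. The list's median was -4.19, -3.86, -0.14 and -1.84 in batches 1 to 4, and its summed level was 88.5, 123 and 687 RPKM in GRP2/MP3 1, 2 and 4 against 3212, 2848 and 2385 in GRP3.

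Of 18 transcription factor genes of the oligodendrocyte lineage, 17 were tested and 4 were called lower in GRP2/MP3: Olig1, Olig2, Sox10 and Sox8. Among all genes tested, 0.642% were called lower. Olig2, which specifies the lineage, was at 2.04, 29.9, 0.468 and 25.5 RPKM in GRP2/MP3 and 703, 1025, 1.18 and 118 in GRP3 (log2 difference -5.03, SE 0.94, adjusted p = 0.0393). Olig1, its neighbour in function, was lower in all 4 batches, at 6.63, 20.0, 0.211 and 64.2 against 1064, 897, 7.7 and 240.2 RPKM (log2 difference -4.81, SE 0.90, adjusted p = 0.0393). Sox10, needed for differentiation, was at 1.01, 0.671, 0 and 16.5 RPKM in GRP2/MP3 and 185, 92.2, 1.19 and 55.9 in GRP3 (log2 difference -4.68, SE 0.88, adjusted p = 0.0397), and Nkx2-2, a homeodomain factor, missed the threshold (log2 difference -3.33, SE 0.84, adjusted p = 0.0833). Nkx6-2, Tcf7l2 and St18 had mean differences of 0.03, 0.17 and 0.83 and were not called.

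**Figure D4:**
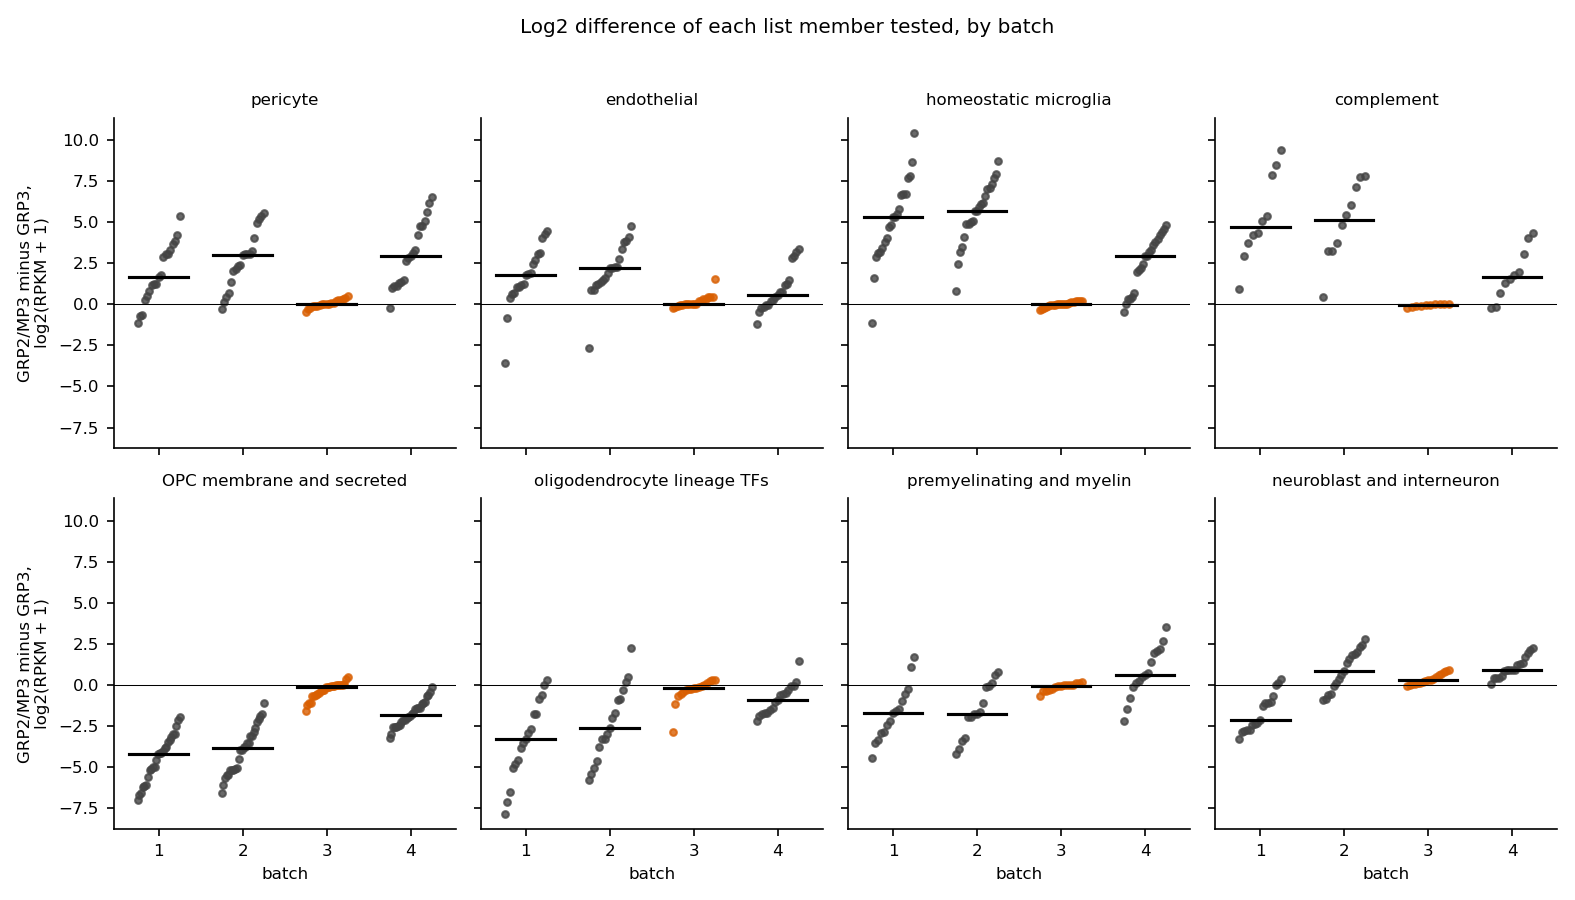
Difference GRP2/MP3 minus GRP3 on the log2(RPKM + 1) scale of every tested member of 8 lists in batches 1 to 4, 1 point per gene sorted by value within a batch, batch 3 in orange, with the median as a bar (TFs are transcription factors). Microglial, complement and pericyte members lie mostly above 0 and all OPC membrane members below 0 in batches 1, 2 and 4, whereas premyelinating and neuroblast members lie on both sides.

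Genes of later oligodendrocyte stages lay in both directions. Of 21 premyelinating and myelin genes 15 were tested, and 1 was called, Tnr, the extracellular matrix protein tenascin-R, lower in GRP2/MP3 (log2 difference -2.78, SE 0.50, adjusted p = 0.0361). The share of all genes tested that was called lower was 0.642%. Bcas1, a gene of premyelinating oligodendrocytes, was at 7.04, 11.2, 0.254 and 66.7 RPKM in GRP2/MP3 and 175, 179, 0.641 and 39 in GRP3, lower in batches 1 and 2 and higher in batch 4 (log2 difference -2.53, SE 0.94, adjusted p = 0.194). Enpp6, a phosphodiesterase of newly formed oligodendrocytes, was higher in GRP2/MP3 in batches 1, 2 and 4, at 5.69, 3.14, 0 and 32.2 against 1.05, 1.41, 0 and 4.19 RPKM (log2 difference 1.72, SE 0.54, adjusted p = 0.133). Ugt8a, which makes galactolipids of myelin, missed the threshold in the other direction (log2 difference -3.01, SE 0.63, adjusted p = 0.0534). In batch 4 the list's median was 0.61, against -1.71 and -1.74 in batches 1 and 2.

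Among the genes named by the smallest p with all 4 batches were a pair of noncoding RNAs opposite coding genes. Gm38039 at chr1:159928390-159931726 lies within Tnr on the other strand, and was at 43.9, 18.3, 0 and 247 RPKM in GRP2/MP3 and 1582, 1061, 5.88 and 803 in GRP3 (log2 difference -4.21, SE 0.79, adjusted p = 0.0393). Gm16277 at chr19:58204139-58236047 overlaps Gfra1, a receptor subunit for GDNF (log2 difference -3.89, SE 0.71, adjusted p = 0.0378). Whether counting used the strand is not stated, so reads of each RNA and of the gene opposite cannot be told apart. Of the 10 genes higher and 10 lower that the rule took in this way, Sept4, a septin, was the first upward (log2 difference 3.30, SE 0.52, adjusted p = 0.025) and higher in all 4 batches, at 49.7, 41.3, 0.784 and 243 against 5.45, 3.67, 0 and 17.3 RPKM. The others upward were Ccl12, Cldn5, Rgs5, Esam, Gja4 and Egfl7, described above, with Chp2, Gm15928 and Gm5741. Downward they were Gm3699, Olig1, Nxph1, Gm11694, Gm24620, Gm12258, Gm10718 and Gm26384. None but Gm3699 passed with all 4 batches.

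Of 11 lectican, link protein and tenascin genes, 5 were tested and none was called (Tnr, called lower, was listed with the myelin genes), though 3 were lower in GRP2/MP3 by at least 1 log2 unit in each of batches 1, 2 and 4. Bcan, the brain lectican brevican, was at 6.79, 7.93, 0.135 and 37.2 RPKM in GRP2/MP3 and 314, 171, 1.3 and 82 in GRP3 (log2 difference -3.58, SE 0.79, adjusted p = 0.0604). Ptprz1, the phosphatase receptor that binds such matrix, had a log2 difference of -3.60, SE 0.85, adjusted p = 0.071, and Vcan, versican, a log2 difference of -2.88, SE 0.60, adjusted p = 0.0533. Ncan, neurocan, stood apart in batch 4, at 1.41, 5.23, 0.0446 and 2540.3 RPKM in GRP2/MP3 and 30.1, 26.7, 0.166 and 1697 in GRP3, with GRP2/MP3 4 and GRP3 4 both far above the other 6 libraries (log2 difference -1.75, SE 0.79, adjusted p = 0.273).

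The genes of the PDGF ligands were not called. Pdgfa, the ligand of the alpha receptor, ranged from 11.1 to 18 RPKM in GRP2/MP3 and from 16 to 32 in GRP3 (log2 difference -0.83, SE 0.55, adjusted p = 0.46). Pdgfb was at 3.42, 7.1, 4.49 and 3.73 RPKM in GRP2/MP3 and 0.102, 0.0214, 6.84 and 1.44 in GRP3, higher in GRP2/MP3 in batches 1, 2 and 4 and lower in batch 3 (log2 difference 1.98, SE 0.47, adjusted p = 0.0718). Genes switched on by ERK, which PDGF receptors activate, were below GRP3 in each of batches 1, 2 and 4 for 10 of the 11 tested (12 listed), against 28.8% of all genes, and none was called. Etv1 (log2 difference -1.35, SE 0.61, adjusted p = 0.273), Etv4 (log2 difference -1.96, SE 0.59, adjusted p = 0.124) and Etv5 (log2 difference -1.53, SE 0.52, adjusted p = 0.161) code for ETS factors, and Spry4 (log2 difference -2.46, SE 0.59, adjusted p = 0.0746) for a feedback inhibitor. Dusp6, a phosphatase that dampens ERK, was the only one of the 11 with a mean above 0 (log2 difference 0.46, SE 0.52, adjusted p = 0.667).

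In the Notch pathway, the ligand gene Dll1 was called lower in GRP2/MP3, at 0.637, 9.05, 0.626 and 2.18 RPKM against 42.8, 66.2, 0.538 and 19.9 in GRP3 (log2 difference -3.40, SE 0.60, adjusted p = 0.0345). It was the only call among 14 genes tested of 17, where 0.642% of all genes tested were called lower. Dll3, a ligand-like inhibitor of Notch, was close behind (log2 difference -3.85, SE 0.83, adjusted p = 0.0553). Heyl, a target of Notch signalling in mural cells, lay the other way and was not called (log2 difference 1.57, SE 0.43, adjusted p = 0.0976), and Notch3, the receptor of mural cells, was not tested, at 4.69, 3.87, 0.0104 and 4.02 RPKM in GRP2/MP3 and 0.914, 0.403, 0.0295 and 0.982 in GRP3. Notch1 had a log2 difference of -1.01, SE 0.55, adjusted p = 0.364.

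Of 26 receptor genes for glutamate and GABA, 17 were tested, 4 were called lower in GRP2/MP3 and none higher. The share called lower among all genes tested was 0.642%. Gria2, the AMPA receptor subunit that limits calcium entry, was at 4.55, 10.4, 0.127 and 17 RPKM in GRP2/MP3 and 134, 179, 0.802 and 79 in GRP3 (log2 difference -3.58, SE 0.62, adjusted p = 0.0334). Gria3 (log2 difference -3.91, SE 0.53, adjusted p = 0.0191), Gria4 (log2 difference -2.48, SE 0.48, adjusted p = 0.042) and the NMDA receptor gene Grin3a (log2 difference -3.71, SE 0.64, adjusted p = 0.0334) were the other calls. All 17 means were below 0, as were those of 63.5% of all genes tested. None of the GABA-A receptor genes tested was called, for example Gabrb1 (log2 difference -0.30, SE 0.39, adjusted p = 0.714).

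No call was made for the remaining neural lineages or for dividing cells. None of the 17 neuroblast, 15 astroglial, 22 replication and 5 ependymal genes tested was called, and 14 ependymal genes were listed. Of all genes tested, 1.36% were called higher and 0.642% lower. At these shares, lists of this size could hold no call, so the absence of calls says little about these lineages. Dcx, a microtubule protein of migrating neuroblasts, was at 2.56, 15.6, 0.332 and 14.7 RPKM in GRP2/MP3 and 33.2, 30.7, 0.124 and 10.9 in GRP3 (log2 difference -1.26, SE 0.72, adjusted p = 0.385). Mki67, a marker of dividing cells, ranged from 3.06 to 11.4 RPKM in GRP2/MP3 and from 2.88 to 7.83 in GRP3 (log2 difference 0.24, SE 0.53, adjusted p = 0.837). Fabp7, a fatty acid binding protein of radial glia and OPCs, was at 301, 1918, 140.4 and 5466 RPKM in GRP2/MP3 and 10174, 14732, 196 and 3299.9 in GRP3 (log2 difference -2.43, SE 0.94, adjusted p = 0.21). Batches disagreed in these lists: the neuroblast median was -2.15 in batch 1 and 0.84 and 0.91 in batches 2 and 4, and the replication median -1.30, 0.81 and 0.19.

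The size of the list median was smaller in batch 4 than in batches 1 and 2 for 19 of the 26 lists. Pericyte genes were an exception, with a median of 2.97 in batch 4 against 1.69 and 3.00 in batches 1 and 2, as were those of the basement membrane, with 2.70 against 0.53 and 2.15. By the ratios of low values, GRP3 was the shallower library in batches 1, 2 and 4, at 0.823, 0.831 and 0.48 times GRP2/MP3. Whether depth plays a part in these medians was not tested. The summed pericyte level was 7834 RPKM in GRP2/MP3 4, most of it Rgs5, and 603 and 644 in GRP2/MP3 1 and 2. The microglial sum was lower in GRP2/MP3 4 than in GRP2/MP3 1 and 2. GRP2/MP3 libraries thus differed from one another in the relation of these 2 sums, but Rgs5 alone was at 6493 RPKM in GRP2/MP3 4. Rgs5 was also highest in batch 4 within each other population. It was at 68 RPKM in GRP3 4, 119 in BNAP/GRP1 4, 102 in NSC 4 and 44.8 in PFMP 4. Whether the relation of the sums follows that of the cells was not tested.

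In batch 3 alone, the genes that differed most were small noncoding RNAs and 1 pseudogene. The 5 highest in GRP2/MP3 3 were Gm24455, Gm44313, Gm25177, Snord55 and Snora33, from 99.5 to 205 RPKM and all listed at 0 in GRP3 3. The 5 lowest were Gm3699, Gm23238, Gm26129, Gm22710 and Gm24620, all listed at 0 in GRP2/MP3 3. None of the 10 passed the test of batch 3 against the other batches. Of the 325 genes called without batch 3, 153 had a difference of the same sign in batch 3, and 8 of the same sign and at least 1 log2 unit. Of all 16191 genes tested, 2109 were higher and 4656 lower in each of batches 1, 2 and 4. Of these, 976 and 2313 had the same sign in batch 3, a share close to that of the called genes. By at least 1 log2 unit in batch 3, 293 of the genes tested were higher and 346 lower.

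BNAP/GRP1 and PFMP, sorted in the same batches from NG2+ cells that carry LeX, differ from each other in the same antigen as GRP2/MP3 and GRP3, so their libraries give the same CD140a contrast in other cells. Of the 221 genes called higher in GRP2/MP3, 131 (59.3%) were higher in BNAP/GRP1 than in PFMP in each of batches 1, 2 and 4, where 13.8% of all genes tested were. Of the 104 called lower, 51 (49.0%) were lower in each of them, against 12.9%. The median over the 221 was 4.14 and 2.69 in batches 1 and 2, where that of all genes was -0.03 and -0.41, but in batch 4 it was 0.90 and no higher than the 0.92 of all genes. Over the 104 it was -2.83, -2.68 and 0.01. These libraries come from the same batches, so this is not independent of the sort of GRP2/MP3 and GRP3. Tyrobp stood at 2189, 1399, 1436 and 16 RPKM in BNAP/GRP1 1 to 4 and 4.18, 7.5, 1406 and 12.1 in PFMP, and Olig2 at 19.8, 5.63, 0.34 and 17.4 in BNAP/GRP1 and 622, 277, 2.19 and 42.9 in PFMP. Rgs5 was at 4.15, 8.45, 0.173 and 119 RPKM in BNAP/GRP1 and 3.4, 0.599, 0.168 and 44.8 in PFMP, and Higd1b at 1.3, 27.1, 0 and 24 in BNAP/GRP1 and 0.298, 8.52, 0.0628 and 0 in PFMP, where GRP2/MP3 1, 2 and 4 had 87.3 RPKM or more of both. Whether the contrast differed between LeX+ and LeX- cells was not tested.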

How the data were processed

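The authors deposited 1 table of RPKM per gene for 20 libraries, 4 for each of 5 sorted populations, with 26 empty columns besides. Per the labels and the study's methods, reads were trimmed with cutadapt 3.4, checked with FastQC 0.11.9, aligned with STAR 2.6.1 (genome build GRCm38), and gene abundance came from Salmon 1.9.0, and the authors made their own comparisons with DESeq2 1.26.0, which were not used here. The gene lengths, the read totals and the annotation release behind the RPKM values are not given in the sources used here, so depth is unknown and no count model was fitted. RNA was amplified before sequencing, which can widen the spread of low genes.

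Genes were kept at 1 RPKM or more in at least 4 of the 8 libraries, values were taken as log2(RPKM + 1), and limma 3.58.1 (R 4.3.3) was fitted across all genes with batch as a block, with Benjamini-Hochberg adjustment at 0.05. Fits were made for all 4 batches, for batches 1, 2 and 4, and for the difference of batch 3 from the mean of the others. The labels give the batch, and the deviations of same-batch libraries from their group means correlated at 0.29, 0.646, 0.823 and 0.705, so the batch numbers were taken to pair the libraries, although GRP3 1 correlated more with GRP2/MP3 2 (0.383). Libraries were made from pooled pups, and p-values measure the spread between these batches only. The scripts were also run on simulated data with large shifts and a capped spread, which checks the code and says nothing about the calls. Genes were matched by Ensembl ID, positions are from GENCODE vM21, and figures were drawn with Python 3.11.15 and matplotlib 3.10.9.

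The members and gene lists were chosen with earlier results of these data known. Genes named were those of the sort antigens, the 10 in each direction that passed, or had the smallest p, with 1 sign in all 4 batches, the key and most extreme members of 26 lists, and the 5 that differed most in each direction in batch 3. Other genes named as members of a count were chosen after their values were seen. Alternatives changed the pairing, pseudocount, filter, scaling, variance prior, the populations fitted together and the batches left out. A few genes of these lists are not reported here.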

Additional observations from a re-analysis of the deposited data

Results flagged for a closer look

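In each population of 4 libraries, the highest or lowest library was compared with the rest by Dixon's criterion on the log2(RPKM + 1) scale at its 95% critical value. Of 186 groups, 20 were singled out, 19 of them for a batch 3 library. The 186 include Gm3699 in GRP2/MP3, which was listed at 0 in all 4 libraries and could not be compared. Chance singles out about 1 in 20 groups, and genes of 1 library are not independent.

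In GRP3, the batch 3 library was far above the other 3 in genes of macrophages. It held Tyrobp at 1375 RPKM, Csf1r at 89.4, Aif1 at 54.4, C1qa at 589, C1qb at 982 and C1qc at 693. The same library stood out with Plcg2 at 15.0, Tnf at 1207 and Il1b at 4104 RPKM, and with the globin gene Hba-a1 at 52339 RPKM. It was far below the other GRP3 libraries in Gria3 at 0.0507 RPKM, Gria4 at 0.0026, Tnr at 0.0024, Gm38039 at 5.88 and Tpm1 at 22.5. Tbx18 was listed at 0 in it.

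In GRP2/MP3, the batch 3 library was far below the rest in Cldn5 at 0.335 RPKM and Ccl12 at 2.75, and stood apart in Plcg2 at 15.8. The 1 library outside batch 3 was GRP2/MP3 4, which stood apart in Irf8 at 6.08 RPKM. The cause of these values was not tested.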

How the results depend on the processing

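The count of 325 genes without batch 3 became 52 with a pseudocount of 0.1, 212 with a variance prior without a trend, and 0 with no filter, with the stricter filter (a mean of 5 RPKM or more) and after median-of-ratios scaling. At an unadjusted p under 0.05 these last fits held 3034, 1666 and 2902 genes. Quantile normalization gave 464 and a fit of all 5 populations 281, of which 303 and 212 were among the 325. Without the replicate block, which drops the pairing by batch, 14 genes passed. Leaving out a batch gave 0 to 2277. With all 4 batches the 1 call stayed without the block and with a pseudocount of 0.1, and 0 genes passed with no filter, the stricter filter, either scaling, a prior without a trend and both fits of all 5 populations. Leaving out a batch there gave 0 to 325. The test of batch 3 against the others gave 0 calls in each fit run. The cause of these changes was not tested.

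No called gene changed direction, which says little since the genes were chosen for their differences in these batches. Of the named genes, the log2 difference of Prom1 turned to 0.11 after median-of-ratios scaling and 0.14 after quantile normalization. With 1 batch left out it ran from -0.51 to 0.21 for Prom1 and from -0.061 to 0.67 for Mki67. Of 48 named genes called, 0 kept the call in all 11 settings. List medians were run only with a pseudocount of 0.1, either scaling or 1 batch left out. Of 26 list medians, 22 kept their sign in all of these. Unknown depth limits what can be said of genes near 0.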
